A study of Homo sapiens with 6 samples.

Results

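The genes described here are the cytosolic ribosomal protein genes, the protein-coding genes whose symbols are RPL or RPS with a number, together with RPLP0, RPLP1, RPLP2, RPSA and FAU. They were chosen by symbol, without RPS6K kinases, readthrough genes or the Y chromosome, and 86 of the 58381 genes in the count files met the rule. Of these, 53 encode proteins of the large subunit and 33 of the small subunit. Symbols alone divided them into 78 canonical genes, 5 paralogues found in many tissues (RPL7L1, RPL22L1, RPL26L1, RPL36AL and RPS27L) and 3 tissue-restricted paralogues (RPL3L, RPL10L and RPL39L). The cells were 786-0, a human clear cell renal cell carcinoma line, all carrying a knockout of SETD2, the histone H3 lysine methyltransferase. They received DMSO or decitabine, a cytidine analogue that traps DNA methyltransferases, at 100 nM or 300 nM each day for 3 days, were given new medium on day 4 and were collected on day 5. Each of the 3 groups had 2 libraries of poly-A RNA. The labels name no wild-type 786-0 library among the 6 used here, do not say how many clones the knockout line holds, and leave unsaid whether replicates are separate cultures. The p-values therefore rest on library-to-library spread that may be technical.

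Ribosomal proteins assemble with ribosomal RNA into the small subunit, which reads the mRNA, and the large subunit, which joins amino acids. Their mRNAs are among the most abundant in growing cells, most begin with a C followed by a pyrimidine tract (a terminal oligopyrimidine, or TOP, start) that ties their translation to mTOR signalling, and the proteins are normally made in matched amounts. A few have copies with a narrow range: RPL39L and RPL10L are known from male germ cells, where RPL10L stands in for the X-linked RPL10, and RPL3L from heart and skeletal muscle.

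The coding sequences of RPL39 and RPL39L show how close a restricted paralogue can be to its parent. They are given without the stop codon, from the GENCODE transcripts on GRCh38, with the differing bases in capitals.
RPL39: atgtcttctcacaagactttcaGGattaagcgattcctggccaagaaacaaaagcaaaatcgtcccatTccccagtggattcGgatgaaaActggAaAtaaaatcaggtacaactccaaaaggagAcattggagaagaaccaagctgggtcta
RPL39L: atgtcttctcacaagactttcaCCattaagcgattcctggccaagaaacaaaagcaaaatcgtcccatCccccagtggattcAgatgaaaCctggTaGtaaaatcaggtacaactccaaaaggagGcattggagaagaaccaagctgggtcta
The 153 bases differ at 8 positions (94.8% identical), and the longest run they share is 44 bases. RPL10L shares 89.3% of aligned coding bases with RPL10, and RPL3L shares 75.3% with RPL3. How reads that match both copies were assigned is not given in the sources used here, so reads of a pair may be split between its members.

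Starts of genes with large changes, and of paralogues, are printed from 25 bases before the annotated start to 25 bases into the transcript (RefSeq, GRCh38.p14), with the unbroken pyrimidine run at the start in capitals. RPL39L and RPL3L have no entry in the table used.
RPL12: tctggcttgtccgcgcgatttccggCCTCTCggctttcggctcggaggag
RPLP1: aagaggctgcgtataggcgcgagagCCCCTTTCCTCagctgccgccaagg
RPSA: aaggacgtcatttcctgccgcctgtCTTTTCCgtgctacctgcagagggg
RPL36A: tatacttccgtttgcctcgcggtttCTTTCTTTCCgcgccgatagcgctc
RPS24: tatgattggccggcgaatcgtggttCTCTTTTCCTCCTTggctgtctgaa
RPL22: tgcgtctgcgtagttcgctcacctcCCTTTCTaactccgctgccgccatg
RPL22L1: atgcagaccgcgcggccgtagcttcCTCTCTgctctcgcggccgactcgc
RPL10L: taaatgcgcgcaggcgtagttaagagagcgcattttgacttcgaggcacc
RPS27L: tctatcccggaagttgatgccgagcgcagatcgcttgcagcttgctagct
RPL12, RPLP1 and RPSA had the largest canonical rises at 300 nM and RPL36A, RPS24 and RPL22 were among the largest falls, and all of them, with RPL22L1, begin with C and at least 4 more pyrimidines, the definition of a TOP start used here. RPL10L and RPS27L do not. On the plus strand lie the windows of RPLP1 (chr15:69452793-69452842), RPSA (chr3:39406695-39406744), RPL36A (chrX:101390986-101391035), RPS24 (chr10:78033838-78033887), and on the minus strand those of RPL12 (chr9:127451382-127451431), RPL22 (chr1:6199571-6199620), RPL22L1 (chr3:170870171-170870220), RPL10L (chr14:46651757-46651806), RPS27L (chr15:63157453-63157502).

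Between 89159112 and 96646427 reads were assigned to genes in each library, and 23160 genes passed a low-count filter. SETD2, the targeted gene, had 77.9 and 81.2 CPM in the DMSO libraries, 39.8 and 49.1 in those at 100 nM, and 16.4 and 21.7 in those at 300 nM (CPM are counts scaled to library size with TMM, edgeR's trimmed-mean factors). Its transcript was thus still counted in the knockout cells, and its log2 fold change was -2.06 at 300 nM. All 86 ribosomal protein genes were tested, but RPL10L and RPL39L passed the filter only through the decitabine libraries, so a difference was built into their inclusion. Of 11 genes listed for this carcinoma line, 10 had reads with DMSO, PAX8 and VIM among them, and CA9 had none. Summed over each list of other cell types, immune markers held 0.718 to 0.723 CPM with DMSO, 1.62 to 1.72 at 100 nM and 3.15 to 3.18 at 300 nM, with MS4A1 at 0, endothelial markers held 0.936 to 1.33 CPM with DMSO, 1.45 to 1.72 at 100 nM and 3.15 to 3.46 at 300 nM, fibroblast markers held 0.749 to 0.936 CPM with DMSO, 3.44 to 4.03 at 100 nM and 2.63 to 2.80 at 300 nM, and erythroid markers held 0.0416 to 0.128 CPM with DMSO, 0.292 to 0.662 at 100 nM and 0.190 to 1.51 at 300 nM. Their part in the results was not tested.

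At 300 nM, more ribosomal protein genes were higher than lower than with DMSO. The direction of the group's median depended on the form of an adjustment for the length of all annotated exons and for GC content. By edgeR's quasi-likelihood test, with p-values adjusted over all genes by the Benjamini-Hochberg method, 53 of 86 were called higher and 13 lower at an adjusted p under 0.05. The 53 include RPL10L and RPL39L, whose inclusion built in a difference. Among the 78 canonical genes, 47 were called higher and 12 lower. Among all genes tested, 34.8% were called higher and 31.1% lower. The median log2 fold change was 0.46 over the ribosomal protein genes and 0.05 over all genes. With offsets that remove the trend of each library on exon length and GC content, 26 were called higher and 44 lower, and the median turned to -0.23, beside -0.27 over all genes. Of the 23160 genes tested, that fit called 6682 higher and 9566 lower. A second, robust form of the offsets, made after those values had been seen, gave 41 higher and 22 lower with a median of 0.13, beside 8090 higher and 6966 lower over all genes. The median of the ribosomal protein genes stood 0.42 above that of all genes without offsets, 0.04 above it with the first form and 0.12 with the second. Of the 53 genes called higher, 21 kept their call under the first form and 27 changed sign. The libraries of the 2 groups did not overlap for 78 of the 86, beside 83.8% of all genes.

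At 100 nM the changes were small and few were called. Of the 78 canonical genes, 9 were called higher and 5 lower. Over all 86 there were 13 higher and 5 lower, beside 24.0% and 18.7% of all genes. The median was 0.08 over the 86, against 0.03 over all genes. The 13 include RPL10L and RPL39L. The count of higher genes ranged from 5 to 29 over the scalings, tools and left-out libraries tried without offsets. The groups did not overlap for 52 of the 86, beside 74.9% of all genes. The count of higher genes was 5 without DMSO replicate 2, 6 without DMSO replicate 1 or 100 nM replicate 1, and 29 without either 300 nM library. The offsets gave 8 higher and 56 lower (median -0.42, beside -0.24 over all genes), and their robust form 15 and 22. Over the 23160 genes tested, the first form called 4924 higher and 8380 lower and the robust form 6434 and 4614. Beside RPL10L and RPL39L, whose inclusion built in a difference, only RPS27L was called higher and only RPL7 lower under every alternative that gave them a value.

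Between the doses, 47 genes were higher at 300 nM than at 100 nM and 6 lower, beside 20.0% and 23.4% of all genes, with a median of 0.31 against -0.04. Groups did not overlap for 69 of the 86, beside 73.1% of all genes. The count of higher genes moved less with the offsets, which gave 45 higher and 15 lower, and 44 and 14 in the robust form. Over the 23160 genes tested, the first form called 4916 higher and 4434 lower and the robust form 4580 and 4477. With total-count scaling the split was 39 higher and 11 lower, beside 3360 higher and 6181 lower of the 23160 genes tested. Without 100 nM replicate 2 the median was 0.21, beside -0.03 over all genes. Without 300 nM replicate 2 it was 0.33, beside -0.08. Canonical genes with large rises between the doses were RPS26 (0.84 ± 0.12), a small-subunit protein at the mRNA exit, FAU (0.76 ± 0.12), RPL28 (0.75 ± 0.12) and RPSA (0.72 ± 0.11), as log2 fold changes ± SE. The 5 largest falls among canonical genes were those of RPL36A (-1.19 ± 0.19), RPS24 (-0.51 ± 0.12), RPL7 (-0.44 ± 0.11), RPL22 (-0.40 ± 0.10) and RPL11 (-0.34 ± 0.11). With the 2 forms of the offsets the signs of RPL7 (0.068 and 0.037) and RPS24 (0.24 and 0.17) between the doses turned.

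**Figure D1:**
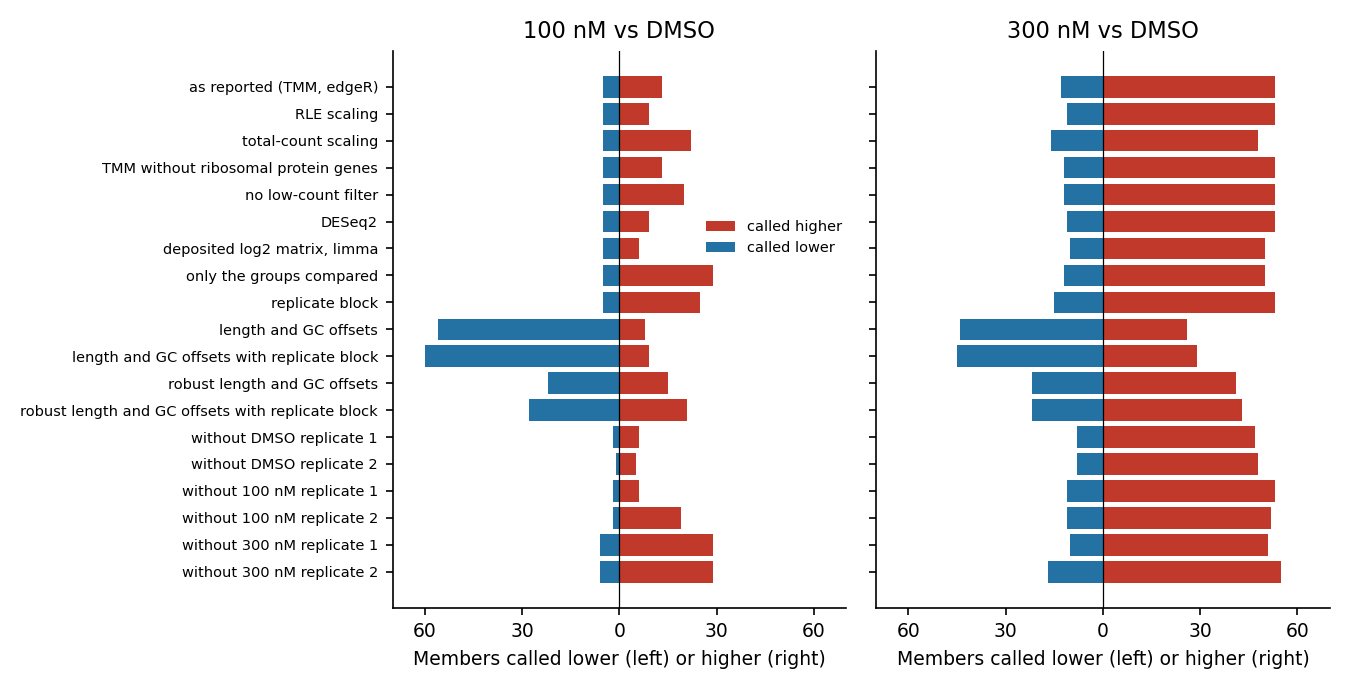
Number of the 86 ribosomal protein genes called lower (left bars) and higher (right bars) than with DMSO at 100 nM and at 300 nM, under each scaling, tool, offset and left-out library. At 300 nM without offsets 47 to 55 genes were called higher and 8 to 17 lower, and with the 4 offset fits 26 to 43 higher and 22 to 45 lower. The robust offsets were added after the others were seen.

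Both subunits held more higher than lower genes at 300 nM without offsets. Of 46 canonical large-subunit genes, 27 were called higher and 8 lower, with a median of 0.39. Of 32 canonical small-subunit genes, 20 were called higher and 4 lower, with a median of 0.52. Over all genes 34.8% were called higher and 31.1% lower. The counts of all 86 genes turned with the first form of the offsets, and the difference between the subunits was not tested.

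The 2 highest canonical changes at 300 nM were those of RPL12 and RPLP1, proteins of the large subunit's stalk, which recruits elongation factors. RPL12, at the stalk's base, had 785 and 755 CPM in the DMSO libraries, 1292 and 1160 in those at 100 nM, and 1692 and 1551 in those at 300 nM. The groups did not overlap, and the edgeR estimates were log2 changes of 0.67 ± 0.10 at the lower dose (adjusted p 2.15e-05) and 1.07 ± 0.10 at the higher (adjusted p 3.32e-08). Its sign did not hold with the offsets, which gave -0.065 and -0.078, while the robust form gave 0.41 and 0.40. With the first form the median over all genes was itself below 0, at -0.24 at 100 nM and -0.27 at 300 nM. RPL12 was above that median at both doses. RPLP1, one of the acidic stalk proteins, had 790.3 and 720.4 CPM in the DMSO libraries, 1004 and 844 in those at 100 nM, and 1629 and 1346 in those at 300 nM. Both 300 nM libraries were above all others, the change at 300 nM was 0.98 ± 0.11 (edgeR adjusted p 8.10e-07), and it was called under every alternative at that dose. RPLP2, its partner, changed by 0.75 ± 0.11 and RPLP0, which anchors both, by 0.56 ± 0.11 at 300 nM, and at 100 nM by 0.04 and -0.04, neither called. With the offsets RPLP2 stood at -0.77 and RPLP0 at -0.021 at 300 nM.

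Among small-subunit genes, RPSA, which also serves as a laminin receptor at the cell surface, had 1008 and 1006 CPM in the DMSO libraries, 1295 and 1090 in those at 100 nM, and 2145 and 1770 in those at 300 nM. Its change was 0.96 ± 0.11 at 300 nM (edgeR adjusted p 7.26e-07), called under every alternative, and 0.24 ± 0.11 at 100 nM, not called. RPS15 had 557 and 525 CPM in the DMSO libraries, 725 and 608 in those at 100 nM, and 1154 and 934 in those at 300 nM, with changes of 0.30 ± 0.11 and 0.95 ± 0.11. FAU, whose product is a ubiquitin-like protein fused to RPS30, changed by 0.90 ± 0.12 at 300 nM. The offsets gave -0.54 for RPS15 and -0.39 for FAU at 300 nM. At 100 nM the canonical genes called higher included RPS27 (0.47 ± 0.11), RPS29 (0.37 ± 0.12) and RPS18 (0.32 ± 0.10). With the offsets RPS27 and RPS18 stood at -0.089 and -0.42 at that dose. RPS4X, the X-linked small-subunit gene, was not called at either dose (0.02 and -0.09).

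The lower genes included RPL36A, RPL7, RPS24, RPL5 and RPL22. RPL7, a large-subunit protein, had 1326 and 1368 CPM in the DMSO libraries, 884 and 852 in those at 100 nM, and 559 and 717 in those at 300 nM. Every decitabine library was below both DMSO libraries, and the changes were -0.63 ± 0.11 and -1.08 ± 0.11 (edgeR adjusted p 1.59e-04 and 1.82e-07). RPL36A had 6.73 and 8.15 CPM in the DMSO libraries, 3.92 and 5.06 in those at 100 nM, and 1.90 and 2.03 in those at 300 nM, a low level for a ribosomal protein gene, with changes of -0.73 ± 0.18 and -1.92 ± 0.19 (edgeR adjusted p 0.00347 and 1.28e-07). RPL36A shares 8.40% of its exon bases with the readthrough gene RPL36A-HNRNPH2, to which no read was assigned, and HNRNPH2 itself had a log2 fold change of -2.15 at 300 nM. The shared part is 333 of 3964 bases of all annotated exons, while the principal mRNA of RPL36A has 429 bases. Its low count is therefore uncertain as a level. RPS24, mutated in some families with Diamond-Blackfan anaemia, had 589 and 578 CPM in the DMSO libraries, 537 and 519 in those at 100 nM, and 317 and 424 in those at 300 nM, a change of -0.65 ± 0.12 at 300 nM (edgeR adjusted p 1.09e-04). The offsets turned RPS24 to 0.41 and, in the robust form, 0.37. RPL6 was called lower at both doses (-0.33 ± 0.09 and -0.35 ± 0.09), and turned to 0.053 with the offsets at 300 nM.

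RPL5, RPL11, RPL23 and RPL26 bind MDM2, the ubiquitin ligase of p53, when ribosome assembly is disturbed. RPL5 had 675 and 701 CPM in the DMSO libraries, 542 and 539.5 in those at 100 nM, and 419.5 and 497 in those at 300 nM. It was called lower at both doses (-0.35 ± 0.10 and -0.59 ± 0.10), but stood at 0.38 at 300 nM with the offsets. RPL11, which forms a particle with RPL5 and 5S RNA, was lower at 300 nM (-0.37 ± 0.11, edgeR adjusted p 0.00604) under every alternative there, and was not called at 100 nM (-0.02). RPL23 (-0.14 and -0.21) and RPL26 (-0.09 and -0.12) were not called. Among the p53 and nucleolar stress genes listed beside them, the 16 genes tested gave 5 higher and 1 lower calls at 100 nM (median 0.28), and 8 higher and 4 lower at 300 nM (median 0.45). Over all genes the shares called higher and lower were 24.0% and 18.7% at 100 nM and 34.8% and 31.1% at 300 nM. At 300 nM GDF15, a stress cytokine, changed by 3.89 ± 0.20, TP53I3 by 2.53 ± 0.15, CDKN1A, the cell cycle inhibitor p21, by 1.56 ± 0.11 and MDM4, an inhibitor of p53, by -2.15 ± 0.18.

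**Figure D2:**
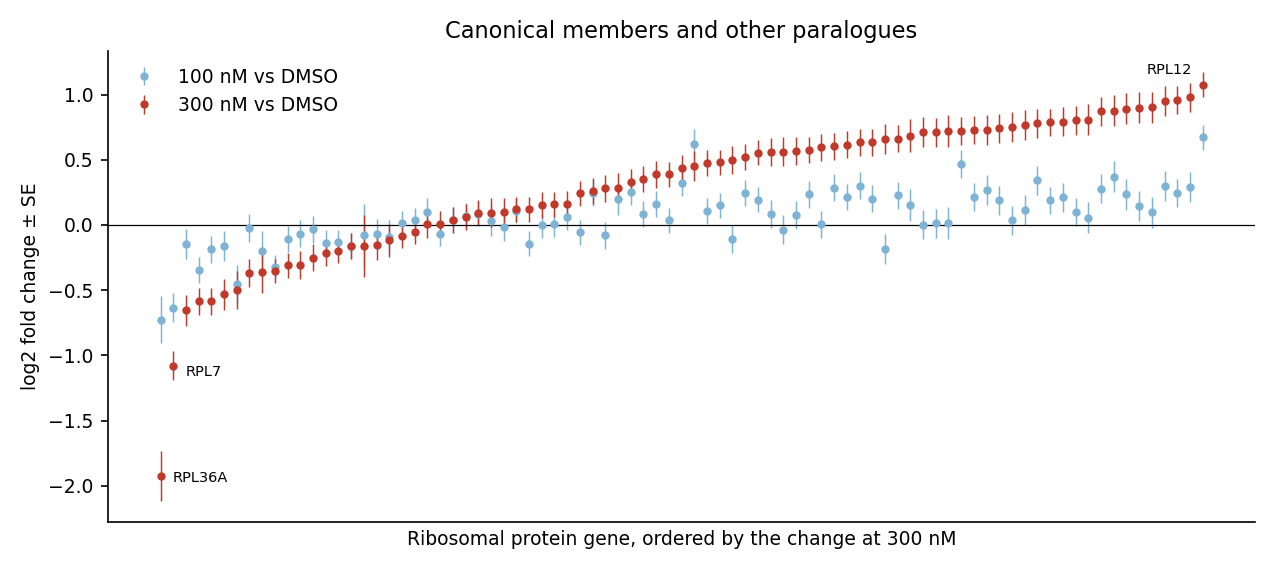
Log2 fold change ± SE against DMSO at 100 nM (blue) and 300 nM (red) for the 78 canonical genes and 5 other paralogues, without length and GC offsets, ordered by the change at 300 nM. At 300 nM they run from -1.92 for RPL36A to 1.07 for RPL12.

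Levels per kb of principal mRNA, averaged over the 6 libraries, were highest for RPS2 (2774 CPM per kb) and RPL8 (2716), and per kb of all annotated exons they were followed by RPL7A. These 3 rose at 300 nM without offsets, RPS2 by 0.74 ± 0.11, RPL8 by 0.80 ± 0.11 and RPL7A by 0.50 ± 0.11 on the log2 scale, and were at -0.62, -0.72 and -0.57 with them. The lowest canonical genes were RPS10 (2.63), RPL36A (10.8) and RPL17 (11.4 CPM per kb). RPS10 shares 39.4% of its exon bases with the readthrough gene RPS10-NUDT3, and other genes share 35.3% of those of RPL17, RPL17-C18orf32 among them. Neither readthrough gene was assigned a read, nor was RPL36A-HNRNPH2, so the low counts of RPS10, RPL36A and RPL17 are uncertain as levels. RPS10 was not called at 300 nM (-0.16) and RPL17 was called lower (-0.36 ± 0.16).

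The 3 tissue-restricted paralogues were higher at both doses than with DMSO, where RPL10L had no read and the others at most 34. RPL39L (chromosome 3, 187120948 to 187180908) had 2 and 6 reads in the DMSO libraries, 40 and 19 in those at 100 nM, and 306 and 290 in those at 300 nM. The log2 change was 2.83 ± 0.55 at the lower dose, 6.28 ± 0.46 at the higher and 3.45 ± 0.35 between them (edgeR adjusted p 8.59e-07 for the last). No p is given against DMSO, since the gene was tested only because of its reads with decitabine. The libraries of the 3 groups did not overlap. RPL10L, an intronless copy of RPL10 (chromosome 14, 46651010 to 46651821), had 0 and 0 reads in the DMSO libraries, 40 and 11 in those at 100 nM, and 118 and 157 in those at 300 nM. With DMSO at 0, its rise was at least 17.0-fold at 100 nM and at least 98.2-fold at 300 nM, taking 3 reads over the 2 DMSO libraries as the floor. Mates were counted singly, so 3 reads can be fewer than 3 fragments, and a floor of 3 fragments would lower both bounds. Between the doses it rose by 2.54 ± 0.48 on the log2 scale (edgeR adjusted p 4.63e-04), with 40 and 11 reads at the lower dose. RPL3L (chromosome 16, 1943974 to 1957606) had 21 and 34 reads in the DMSO libraries, 67 and 72 in those at 100 nM, and 195 and 177 in those at 300 nM. Its changes were 1.33 ± 0.34 and 2.86 ± 0.33 (edgeR adjusted p 0.00464 and 9.07e-07). The call of RPL3L at 300 nM held under every alternative, while that at 100 nM did not.

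The changes of their parents were smaller in size. RPL39 had 203 and 192 CPM in the DMSO libraries, 246 and 222 in those at 100 nM, and 233 and 239 in those at 300 nM, with changes of 0.25 ± 0.10 and 0.26 ± 0.10, the second called. RPL10 changed by -0.08 and 0.28 and RPL3 by -0.14 and 0.12, with only RPL10 at 300 nM called. With the offsets RPL39 stood at -0.51 and RPL10 at -0.23 at 300 nM. Per kb of principal mRNA, each restricted paralogue stayed far below its parent: RPL39L was 0.0134% of RPL39 with DMSO and 0.879 ± 0.132% (SD, n = 2) at 300 nM. RPL10L reached 0.294 ± 0.0686% of RPL10 and RPL3L 0.0950 ± 0.00895% of RPL3.

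Set against the canonical genes, with each library scaled to the summed reads of those 78 genes, RPL3L stayed higher with decitabine. RPL39L also had higher values, but it was tested only through its reads with decitabine, which built in a difference from DMSO. At 300 nM relative to DMSO, RPL39L changed by 5.82 ± 0.48 and RPL3L by 2.39 ± 0.34 (edgeR adjusted p 3.23e-04 for RPL3L), and at 100 nM by 2.74 ± 0.55 and 1.25 ± 0.35. On this scale 21.3% of all genes were called higher and 42.3% lower at 300 nM, 19.1% and 16.5% at 100 nM, and 5.82% and 34.1% between the doses. RPL3L at 100 nM lost its call without DMSO replicate 1 (0.91, adjusted p 0.140) or 100 nM replicate 2 (1.06, adjusted p 0.0958).

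**Figure D3:**
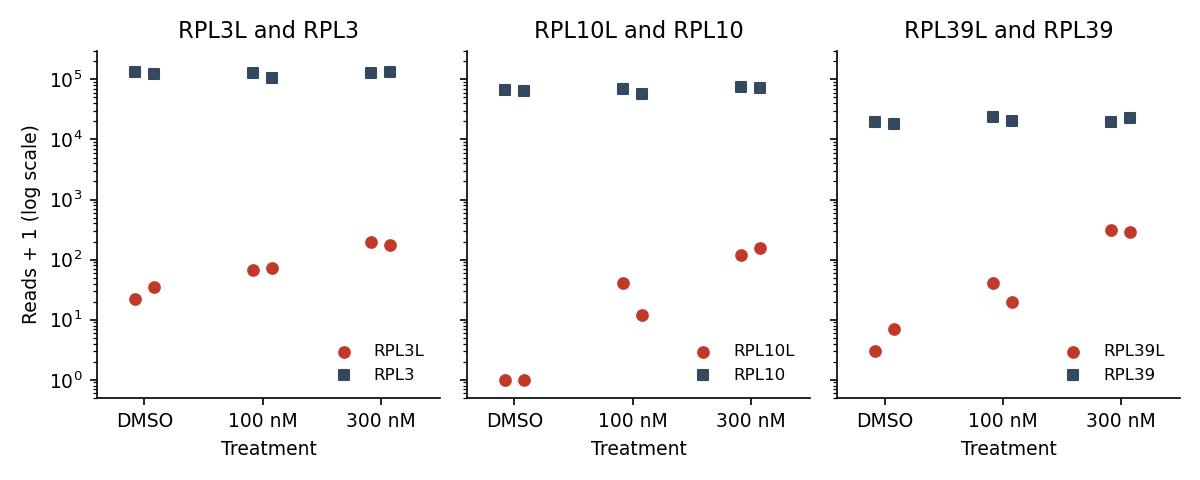
Reads plus 1 (log axis) of RPL3L, RPL10L and RPL39L (circles) and of their parents (squares) in each of the 2 libraries per group. The restricted paralogues climb from at most 34 reads with DMSO to between 118 and 306 at 300 nM, far below their parents in every library.

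The region before RPL10L is shown because decitabine lowers DNA methylation, a mark of CG pairs. Methylation was not measured here. The region runs from 250 bases before the start to 25 bases into the transcript, on the minus strand (chr14:46651757-46652031, RefSeq, GRCh38.p14), with each CG in capitals.
RPL10L: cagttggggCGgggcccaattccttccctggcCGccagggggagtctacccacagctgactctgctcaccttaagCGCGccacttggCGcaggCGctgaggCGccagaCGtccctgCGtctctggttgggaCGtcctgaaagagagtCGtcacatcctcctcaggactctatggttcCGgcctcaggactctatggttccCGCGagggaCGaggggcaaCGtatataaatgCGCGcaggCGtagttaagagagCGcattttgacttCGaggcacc
It holds 21 CG pairs, and the 300-base window around this start holds 25, against a median of 14 over the 35116 windows of the table and of 23 over those of the canonical genes.

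The other paralogues differed among themselves. RPS27L, a p53-inducible copy of RPS27, had 44.7 and 45.8 CPM in the DMSO libraries, 68.9 and 70.5 in those at 100 nM, and 57.2 and 66.6 in those at 300 nM. It was higher at 100 nM (0.62 ± 0.11, edgeR adjusted p 2.45e-04) and at 300 nM (0.45 ± 0.11, adjusted p 0.00203), under every alternative, while its parent RPS27 rose by 0.47 and 0.72. RPL22L1, which is repressed by its parent RPL22 in other cells, had 17.7 and 18.7 CPM in the DMSO libraries, 20.6 and 19.8 in those at 100 nM, and 28.2 and 30.4 in those at 300 nM. It changed by 0.69 ± 0.12 at 300 nM and RPL22 by -0.59 ± 0.10. Per kb of principal mRNA, RPL22L1 went from 6.60 ± 0.257% of RPL22 with DMSO to 16.0 ± 0.981% at 300 nM (SD, n = 2). RPL7L1 rose by 0.33 ± 0.10 at 300 nM, against a fall of RPL7. RPL36AL, like RPL36A, was lower at 300 nM (-0.53 ± 0.12). RPL26L1 was not called at either dose (0.03 and 0.09), nor was RPL26. Relative to the canonical pool at 300 nM, RPL22L1 (0.23), RPL7L1 (-0.13) and RPS27L (-0.0015) were not called, and RPL36AL (-0.99 ± 0.13) and RPL26L1 (-0.36 ± 0.13) were lower.

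The change at 300 nM was higher in GC-rich and in abundant mRNAs. Over the 78 canonical genes, Pearson's r between the GC content of the principal mRNA and the log2 fold change at 300 nM was 0.55 (Spearman's rho 0.58), given as a description across genes that share the same libraries. With the level per kb of the principal mRNA it was 0.49 (0.54) at 300 nM and 0.40 at 100 nM, where GC content gave 0.28. That level is a mean over all libraries, those with decitabine included, so a rise itself adds to the level. Over 15259 other protein-coding genes the r with GC content at 300 nM was 0.39 (0.54). In 3 sets of 26 canonical genes by GC, a split made after the data were seen, 23 were called higher and 0 lower in the high set, 16 and 3 in the middle, and 8 and 9 in the low set. Of other protein-coding genes in the same GC ranges, 3116 were called higher and 562 lower of 4965 in the high range, 988 were called higher and 515 lower of 2193 in the middle and 745 were called higher and 1580 lower of 3208 in the low. The medians of the 3 sets were 0.71, 0.39 and -0.04, beside 0.63, 0.25 and -0.37 over other protein-coding genes of the same GC ranges. All 12 canonical genes of chromosome 19, a set also picked after the data were seen and with GC from 53.8 to 61.6%, were called higher at 300 nM, with a median of 0.74. Over all genes 34.8% were called higher, and other genes of chromosome 19 were not compared. Canonical mRNAs were short, with a median length of 704.5 bases against 2752.0 for the other coding genes, where r between length and the change at 300 nM was -0.20. Over the canonical genes that r was -0.0041 (rho -0.14).

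**Figure D4:**
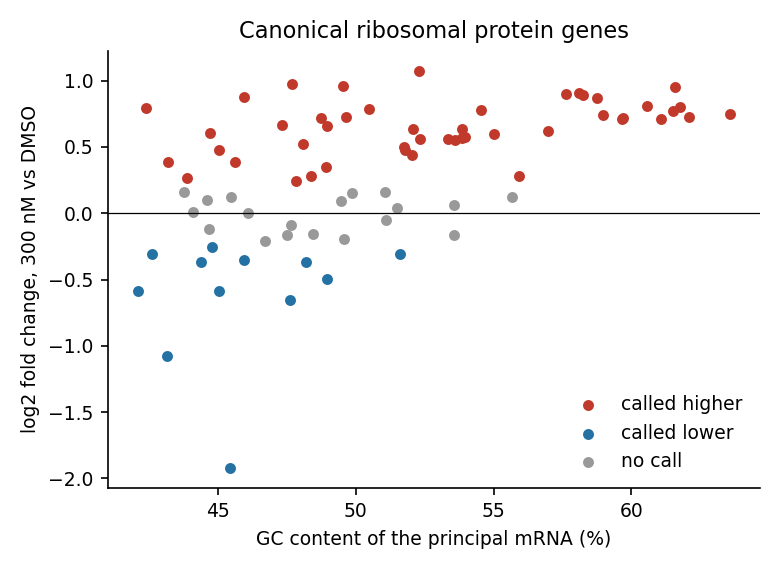
GC content of the principal mRNA (%) against the log2 fold change at 300 nM, without offsets, for the 78 canonical genes, coloured by call. None of the 26 genes of highest GC content was called lower, and the 12 genes called lower all lie among the other 52.

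Canonical genes with and without a TOP start gave like counts of calls at 300 nM. In the promoter table, which had windows for 63 of the 78 canonical genes, 47 had a TOP start in at least 1 window, against 5.14% of all genes in the table. At 300 nM 29 of these 47 were called higher and 7 lower (median 0.50), and 10 and 2 of the 16 without one (median 0.51). These counts are without offsets and stand beside 34.8% of all genes called higher and 31.1% lower. With the first form of the offsets, 20 of all 78 canonical genes were called higher and 42 lower. The difference between genes with and without a TOP start was not tested. Windows of 300 bases were also searched on both strands for 5 motifs. CCGGAAG, an ETS-type motif, was present in 33.3% of the canonical windows and 10.3% of all windows, and CACGTG, an E-box, in 5.13% of the canonical windows and 7.26% of all windows. GGGCGG, a GC box, was present in 55.13% and 44.95%, AAGATGG, a YY1-type motif, in 11.5% of the canonical windows and 5.84% of all windows, and TATAAA, a core promoter element, in 6.41% of the canonical windows and 11.5% of all windows. A match describes the letters of the window only.

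As a share of all gene-assigned reads, the 86 genes held 4.38 and 4.18% in the DMSO libraries, 4.84 and 4.33% in those at 100 nM, and 5.60 and 5.32% in those at 300 nM. The means were 4.28 ± 0.140, 4.59 ± 0.363 and 5.46 ± 0.197% (SD, n = 2). Both 300 nM libraries were above the other 4, while the 100 nM and DMSO libraries overlapped. The exact permutation test, two-sided, gave p = 0.333 for 300 nM against DMSO and against 100 nM, the smallest that 2 libraries a group allow, and 0.667 for 100 nM against DMSO. Genes of the mitochondrial genome moved the other way, with means of 4.26, 3.49 and 2.82%. Their part in the share was not tested, and with their reads left out of the total the shares were 4.47, 4.75 and 5.62%. In bulk libraries a higher share cannot be told apart from less RNA of other genes.

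**Figure D5:**
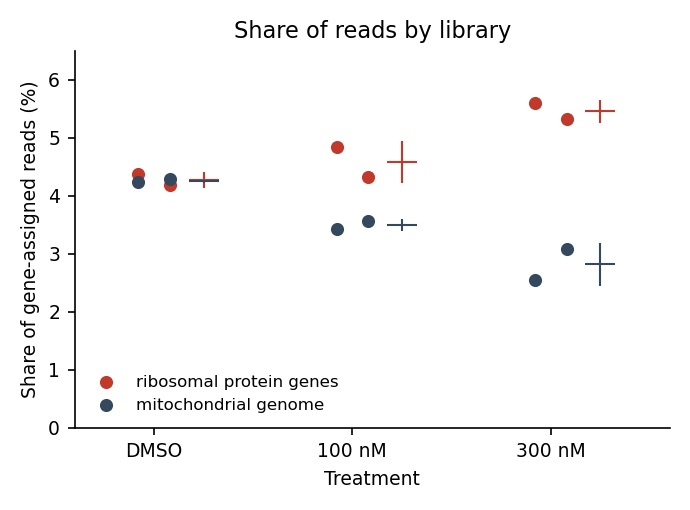
Share of gene-assigned reads (%) on the 86 ribosomal protein genes and on the mitochondrial genome in each library (points), with the group mean and SD (bars, n = 2). The ribosomal share is highest in both 300 nM libraries, at 5.60 and 5.32%.

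Pseudogenes of ribosomal protein genes, of which 643 of 1135 had a read, held, of gene-assigned reads, 0.106 and 0.0947% in the DMSO libraries, 0.120 and 0.102% in those at 100 nM, and 0.146 and 0.132% in those at 300 nM. Among 29 canonical genes with under 1% of their exon bases shared with another gene, a set made after the data were seen, 18 were called higher and 3 lower at 300 nM without offsets. The shares over all genes were 34.8% higher and 31.1% lower. RACK1, a scaffold bound to the small subunit and outside the rule, changed by -0.13 ± 0.10 and 0.27 ± 0.10, called at 300 nM alone, and stood at -0.12 there with the offsets.

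Genes that build or regulate ribosomes held calls in both directions. The counts below stand beside 24.0% of all genes called higher and 18.7% lower at 100 nM, and 34.8% and 31.1% at 300 nM, and several are close to those shares. Among ribosome biogenesis factors, the 68 genes tested gave 1 higher and 28 lower calls at 100 nM (median -0.17), and 24 higher and 29 lower at 300 nM (median 0.02). TAF1D, of the RNA polymerase I initiation factor, changed by -1.97, NOP58, a core protein of box C/D snoRNPs, by -2.16, UTP20 by -1.85 and NOL11 by -2.02 at 300 nM, all called lower. Among dedicated chaperones of ribosomal proteins, the 13 genes tested gave 3 higher and 2 lower calls at 100 nM (median 0.06), and 8 higher and 3 lower at 300 nM (median 0.50). LTV1 (-1.92) and BCCIP (-1.36) were lower, and RPS19BP1 (1.04) and ZPR1 (0.94) higher. Among other mRNAs with TOP starts, translation factors for the most part, the 27 genes tested gave 1 higher and 11 lower calls at 100 nM (median -0.14), and 9 higher and 12 lower at 300 nM (median -0.13), with EEF1G at 0 reads. Exons that EEF1G may share with other genes were not examined, so its 0 reads are uncertain as a level. EIF2A (-2.15), EIF3A (-1.44), NPM1 (-1.22) and HNRNPA1 (-1.13) fell at 300 nM. LTV1, NPM1 and NAP1L1 stand on more than 1 list.

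Among regulators of TOP translation and of ribosomal protein transcription, the 29 genes tested gave 7 higher and 13 lower calls at 100 nM (median -0.15), and 11 higher and 14 lower at 300 nM (median -0.22), with 24.0% and 18.7% of all genes higher and lower at 100 nM and 34.8% and 31.1% at 300 nM. The RNA-binding protein TIA1 (-3.25), RICTOR of mTOR complex 2 (-3.38), the ETS factor GABPA (-2.87) and the kinase RPS6KB1 (-1.94) were lower at 300 nM. Among mitochondrial ribosomal proteins, the 83 genes tested gave 5 higher and 14 lower calls at 100 nM (median -0.03), and 39 higher and 19 lower at 300 nM (median 0.19). MRPL39 (-1.50), PTCD3 (-1.25) and MRPL1 (-1.41) were lower and MRPS12 higher (1.04, but -0.42 with the offsets) at 300 nM. Among snoRNA host genes with TOP starts, the 10 genes tested gave 2 higher and 2 lower calls at 100 nM (median 0.13), and 1 higher and 4 lower at 300 nM (median -0.04). SNHG12 (-0.93), SNHG1 (-0.77) and GAS5 (-0.56) were lower and SNHG16 (0.39) higher.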

How the data were processed

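Raw counts per gene were deposited by the authors for each library, made with featureCounts 1.5.0-p3 on GENCODE 28 gene models, per the file headers, whose command names neither pairs nor strand, so mates were counted singly and antisense reads cannot be told apart. STAR, SAMtools and DESeq2 are named in the submitters' processing notes, with hg19, while gene coordinates in the files match GRCh38 (56933 shared versioned identifiers, all at the same positions). A matrix of log2 values was also deposited by the authors and served as an alternative. Gene names came from GENCODE 29 (58261 of 58381 genes). The members and gene lists were chosen with earlier results of these data known.

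Counts were scaled by TMM, filtered with filterByExpr (minimum count 10) and fitted over all 6 libraries with edgeR 4.0.16 (R 4.3.3), by group, with 3 residual degrees of freedom. The SE is the log2 fold change divided by the square root of F. A second fit set each library size to the reads of the canonical genes. DESeq2 1.42.0 and limma 3.58.1 gave alternatives. Scripts were tested on simulated data. The genes named are, by rule, the paralogues and their parents, the MDM2 binders, a few listed genes, the 5 highest and 5 lowest canonical genes per comparison, the 3 most and 3 least abundant per kb, and up to 4 genes per list. Some genes that the rule names are not reported here. Offsets were smooths (loess span 50%) of log CPM deviations, fitted to genes averaging 1 CPM or more, on the length of all annotated exons and transcript GC content. Their robust form, made after the first values were seen, used symmetric loess and new TMM factors. What is given as called in every alternative covers the fits listed in the plot of calls by setting. GC content and length in the text are those of the principal transcript, a choice made after the data were seen, as were the promoter motifs, the TOP rule and the starts printed.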

Additional observations from a re-analysis of the deposited data

How the results depend on the processing

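Without offsets the counts at 300 nM kept their direction under every scaling, filter, tool and left-out library tried, while those at 100 nM did not keep their size. Named genes with a call in either fit changed sign only with length and GC offsets, and the cause was not tested. Under the first form the median over all genes was -0.24 at 100 nM and -0.27 at 300 nM against DMSO. A gene that turned to a value just below 0 there can thus still be above that median. Values near 0 with no call in either fit, such as those of RPS4X and RPL26L1 at 100 nM with RLE scaling, also changed sign and were counted as unchanged. The second form of the offsets was made after the values of the first were seen, and moves the median at 300 nM less.

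The number called higher for 100 nM vs DMSO was 13 as reported, 22 with total-count scaling, 20 with no low-count filter, 6 with deposited log2 matrix, limma, 29 with only the groups compared, 25 with replicate block, 8 with length and GC offsets, 21 with robust length and GC offsets with replicate block, and 5 to 29 with 1 library left out. The number called lower for 100 nM vs DMSO was 5 as reported, 56 with length and GC offsets, 60 with length and GC offsets with replicate block, 22 with robust length and GC offsets, 28 with robust length and GC offsets with replicate block, and 1 to 6 with 1 library left out. Its median log2 change was 0.08 as reported, -0.42 with length and GC offsets, -0.42 with length and GC offsets with replicate block, -0.032 with robust length and GC offsets, -0.032 with robust length and GC offsets with replicate block. Of the 23160 genes tested, 5564 were called higher as reported, 5553 with total-count scaling and 6179 with replicate block. With no low-count filter 5737 of 37599 genes were called higher, with limma 4682 of 37599, and with only the groups compared 5938 of 21856. Called lower over all genes were 4331 as reported and 8414 with length and GC offsets with replicate block. The robust form with replicate block gave 6464 higher and 4773 lower.

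The number called higher for 300 nM vs DMSO was 53 as reported, 26 with length and GC offsets, 29 with length and GC offsets with replicate block, and 47 to 55 with 1 library left out. The number called lower for 300 nM vs DMSO was 13 as reported, 44 with length and GC offsets, 45 with length and GC offsets with replicate block, 22 with robust length and GC offsets, 22 with robust length and GC offsets with replicate block, and 8 to 17 with 1 library left out. Its median log2 change was 0.46 as reported, 0.36 with total-count scaling, -0.23 with length and GC offsets, -0.23 with length and GC offsets with replicate block, 0.13 with robust length and GC offsets, 0.13 with robust length and GC offsets with replicate block. Of the 23160 genes tested, 8060 were called higher and 7203 lower as reported, and 6682 and 9566 with length and GC offsets. With the replicate block added these were 6660 and 9529. The robust form gave 8090 and 6966, and 8099 and 6974 with the block.

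The number called higher for 300 nM vs 100 nM was 47 as reported, and 28 to 49 with 1 library left out. The number called lower for 300 nM vs 100 nM was 6 as reported, 11 with total-count scaling, 2 with deposited log2 matrix, limma, 15 with length and GC offsets, 15 with length and GC offsets with replicate block, 14 with robust length and GC offsets, 15 with robust length and GC offsets with replicate block, and 4 to 12 with 1 library left out. Its median log2 change was 0.31 as reported, 0.18 with total-count scaling, 0.21 with length and GC offsets, 0.21 with length and GC offsets with replicate block, 0.19 with robust length and GC offsets, 0.19 with robust length and GC offsets with replicate block. Of the 23160 genes tested, 5431 were called lower as reported, 6181 with total-count scaling and 4434 with length and GC offsets. With the replicate block added to the offsets 4507 were called lower. The robust form gave 4477, and 4563 with the block. With limma 4316 of 37599 genes were called lower.

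RPL10L relative to the canonical pool, 300 nM vs 100 nM, was no longer called without 100 nM replicate 2, and ran from 1.63 to 3.22 over the left-out libraries. RPL3L relative to the canonical pool, 100 nM vs DMSO, was no longer called without DMSO replicate 1 or without 100 nM replicate 2, and ran from 0.91 to 1.68 over the left-out libraries. RPL3L relative to the canonical pool, 300 nM vs 100 nM, was no longer called with length and GC offsets (0.75), with robust length and GC offsets (0.78), without 100 nM replicate 1 or without 100 nM replicate 2 or without 300 nM replicate 1, and ran from 0.96 to 1.32 over the left-out libraries. Relative to the canonical pool, values that changed sign, without or with the replicate block, were RPL7L1, 300 nM vs 100 nM, from -0.30 to 0.26 with the offsets and 0.23 with their robust form, RPL7L1, 300 nM vs DMSO, from -0.13 to 1.00 with the offsets and 0.67 with their robust form, RPS27L, 300 nM vs 100 nM, from -0.55 to 0.26 with the offsets and 0.21 with their robust form, RPS27L, 300 nM vs DMSO, from -0.0015 to 1.58 with the offsets and 1.18 with their robust form.

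For 100 nM vs DMSO, the log2 changes that changed sign under the length and GC offsets, without or with the replicate block, were FAU -0.67, RPL12 -0.065, RPL26L1 -0.67, RPL28 -0.23, RPL39 -0.37, RPL8 -0.79, RPLP1 -0.13, RPLP2 -0.87, RPS15 -0.59, RPS18 -0.42, RPS2 -0.63, RPS27 -0.089 and -0.087, RPS4X -0.30 and -0.31. For 100 nM vs DMSO, the log2 changes that changed sign under their robust form, without or with the replicate block, were RPL26L1 -0.20, RPL8 -0.14, RPLP2 -0.23, RPS24 0.19.

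For 300 nM vs DMSO, the log2 changes that changed sign under the length and GC offsets, without or with the replicate block, were FAU -0.39, MRPS12 -0.42, RACK1 -0.12, RPL10 -0.23 and -0.24, RPL12 -0.078, RPL26L1 -0.88, RPL3 -0.57, RPL39 -0.51, RPL5 0.38, RPL6 0.053 and 0.050, RPL7A -0.57, RPL8 -0.72, RPLP0 -0.021 and -0.030, RPLP2 -0.77, RPS15 -0.54, RPS18 -0.65, RPS2 -0.62, RPS24 0.41, RPS26 -0.24. For 300 nM vs DMSO, the log2 changes that changed sign under their robust form, without or with the replicate block, were RPL26L1 -0.39 and -0.40, RPL3 -0.25, RPL39 -0.078 and -0.077, RPL5 0.46, RPL6 0.15 and 0.14, RPL7A -0.093 and -0.095, RPL8 -0.030, RPLP2 -0.089 and -0.088, RPS18 -0.15, RPS2 -0.035 and -0.036, RPS24 0.37.

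For 300 nM vs 100 nM, the log2 changes that changed sign under the length and GC offsets, without or with the replicate block, were RPL7 0.068 and 0.069, RPS24 0.24. For 300 nM vs 100 nM, the log2 changes that changed sign under their robust form, without or with the replicate block, were RPL7 0.037, RPS24 0.17 and 0.18.

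Samples with the same replicate number did not deviate together (r 0.020, 0.0075, 0.075 between group pairs over all genes), so the numbers were not taken to pair samples. The replicate block alone gave 25 higher and 5 lower at 100 nM and 53 and 15 at 300 nM. Depth limits RPL10L and RPL39L with DMSO, where they had at most 6 reads.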
